A study of Homo sapiens with 18 samples.

Results

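The 38 synaptic vesicle and release genes described here are the genes of vesicle proteins, SNARE proteins, complexins, synaptotagmins and active zone proteins, taken by symbol from a list of 38 names. All 38 have a row in the mRNA-seq table, which holds 22336 genes. They were read together with the STARR-seq enhancers and ATAC-seq peaks whose centres lay within 50 kb of an annotated start site of the gene, in hg19 coordinates. The study used LNCaP, an androgen-responsive line from a human prostate cancer metastasis, to measure which genomic fragments act as enhancers and how that activity relates to chromatin accessibility. Its 18 libraries fall into 7 groups. WHG-STARR-seq, in which random genomic fragments are placed behind a minimal promoter and transcribe themselves when they act as enhancers, gave 2 output libraries from transfected cells and 1 input library of the fragments before transfection. ATAC-seq, which marks accessible chromatin by transposase insertion, gave 3 libraries from cells given TSA and 3 from cells given the vehicle DMSO. mRNA-seq gave 3 TSA, 3 vehicle and 3 untreated libraries. TSA, trichostatin A, inhibits histone deacetylases and was given at 100 ng/ml for 24 h. All groups are the same line, so every value below is from 1 cancer cell line, and STARR-seq reads the fragment on a plasmid and not in its chromosome.

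Neurons store transmitter in synaptic vesicles and release it when calcium enters. Vesicles dock at the active zone, where RIM, Munc13, Bassoon and Piccolo proteins prepare them, the SNARE proteins SNAP25, syntaxin and synaptobrevin pull the membranes together, complexins hold the complex, and synaptotagmins sense calcium. Endocrine and other secretory cells use many of the same proteins or close relatives of them. In cells that are not neurons, many of the neuronal members are held silent by the repressor REST, which binds a DNA element called RE1 and recruits histone deacetylases.

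The values used here carry no replicate error. The gene table gives 1 average per gene, the ATAC-seq lists give 1 score for each peak after the libraries of a condition were pooled, and the enhancer lists give 1 fold enrichment for both output libraries pooled. No test between conditions was made, and every comparison below is a description of these pooled values. The average of a gene was read as covering TSA, vehicle and untreated libraries together, and so as the level of no single condition. Steps in the low averages fit whole reads summed over 9 libraries, with 98.7% of 3933 low genes within 0.2 of a whole read, against 28.4% when 6 libraries are assumed. The lowest value in the table, -2.62 log2 CPM (CPM, reads scaled to a common library size), belongs to the 2019 genes with no read.

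LNCaP carried its own markers in this table. All 10 luminal prostate markers averaged at least 1 CPM, between 4.41 log2 CPM for KLK2 and 11.17 for FOLH1. Of the neuroendocrine markers reported here, ENO2 was the highest, NCAM1 was at 5.19, SYP at 2.60 and CHGB at 0.92 log2 CPM, and CHGA and INSM1 lay below 1 CPM. Of 8 neuron markers 3 reached 1 CPM, MAP2, TUBB3 and NEFL, while ELAVL4 was at -2.34 and RBFOX3 at -0.40 log2 CPM. Summed levels were 4379 CPM for luminal, 235 for neuron, 76.0 for basal, 115 for fibroblast and 5.78 for endothelial markers, and the leukocyte marker CD3E had no read. Their part in the values below was not tested, and in bulk samples fewer cells with a transcript and less transcript per cell cannot be told apart.

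A pair of sequence sets carries most of what follows. The first holds matches to RE1 near start sites. RE1 was searched on both strands as CAGCACCNNGGACAGC, which has 14 fixed letters. The matches with no more than 1 mismatch within 2500 bases of a member's start are printed here with 7 bases on each side, in the direction of the motif, with the 16 bases of the match in capitals. They come from the GRCh37 genome, whose coordinates are those of hg19.
SNAP25, chr20:10200315-10200344, plus strand, no mismatch, 523 bases after a start: gacctttCAGCACCGGGGACAGCggtccgg
SNAP25, chr20:10200264-10200293, plus strand, 1 mismatch, 472 bases after a start: ccgcgctCAGCACCCTGGATAGCaacaccg
SYT5, chr19:55691564-55691593, minus strand, no mismatch, 78 bases after a start: ccgcgatCAGCACCCGGGACAGCgccaccg
SYN1, chrX:47479465-47479494, minus strand, 1 mismatch, 224 bases before the start: ccagcttCAGCACCGCGGACAGTgccttcg
SYT4, chr18:40857254-40857283, minus strand, 1 mismatch, 186 bases after the start, in the UTR: ttcccttCAGCACCTCGGACAGAacacgca
CPLX2, chr5:175298887-175298916, minus strand, 1 mismatch, 321 bases after a start: gtcctttCAGCACCACGGAGAGCgcacccg
SYT6, chr1:114697836-114697865, minus strand, 1 mismatch, 1349 bases before a start: gggtcttCAGCACCGTGGACAGAgccaggg

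The second set shows the 150 bases around the summits of 4 enhancers near members, chosen as the strongest of all, the strongest away from any start site in open chromatin, the strongest in closed chromatin, and the strongest closed one that lay in a TSA peak and in no vehicle peak. Capitals mark matches to the p53 half-site (a motif added after the sequence had been seen) in the first, E-boxes (CANNTG) in the SYT7 and SYT6 ones, and a GC box (GGGCGG, here on the minus strand) in the SV2B one.
Open, fold 17.8, near RAB3A, chr19:18335340-18335489: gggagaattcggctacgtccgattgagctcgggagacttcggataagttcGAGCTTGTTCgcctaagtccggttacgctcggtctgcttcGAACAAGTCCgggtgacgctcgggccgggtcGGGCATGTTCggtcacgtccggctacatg
Open, fold 7.51, near SYT7, chr11:61394338-61394487: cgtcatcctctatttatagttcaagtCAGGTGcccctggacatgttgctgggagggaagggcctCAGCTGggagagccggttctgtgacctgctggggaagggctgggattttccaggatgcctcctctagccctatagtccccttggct
Closed, fold 6.94, near SYT6, chr1:114724306-114724455: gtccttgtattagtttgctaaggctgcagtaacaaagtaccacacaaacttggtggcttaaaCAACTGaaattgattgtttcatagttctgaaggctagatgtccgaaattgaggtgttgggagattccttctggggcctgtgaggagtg
Closed, fold 4.60, near SV2B, chr15:91767141-91767290: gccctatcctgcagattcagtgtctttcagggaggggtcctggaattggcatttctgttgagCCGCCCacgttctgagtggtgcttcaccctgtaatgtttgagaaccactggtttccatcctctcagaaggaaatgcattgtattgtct

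The highest average among the synaptic genes was that of UNC13B at 7.06 log2 CPM and the lowest SYT10 at -2.40, which rests on about 3 reads over all 9 libraries. Of the 38 genes, 27 averaged at least 1 CPM, 71.1%, against 66.3% of all 22336 genes. The median was 1.15 log2 CPM against 2.94 over all genes, and 17 of the 38 lay above the median of all genes. In the plot of averages by role, no member lies between SYT13 at 1.89 and STX1A at 3.16 log2 CPM.

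**Figure D1:**
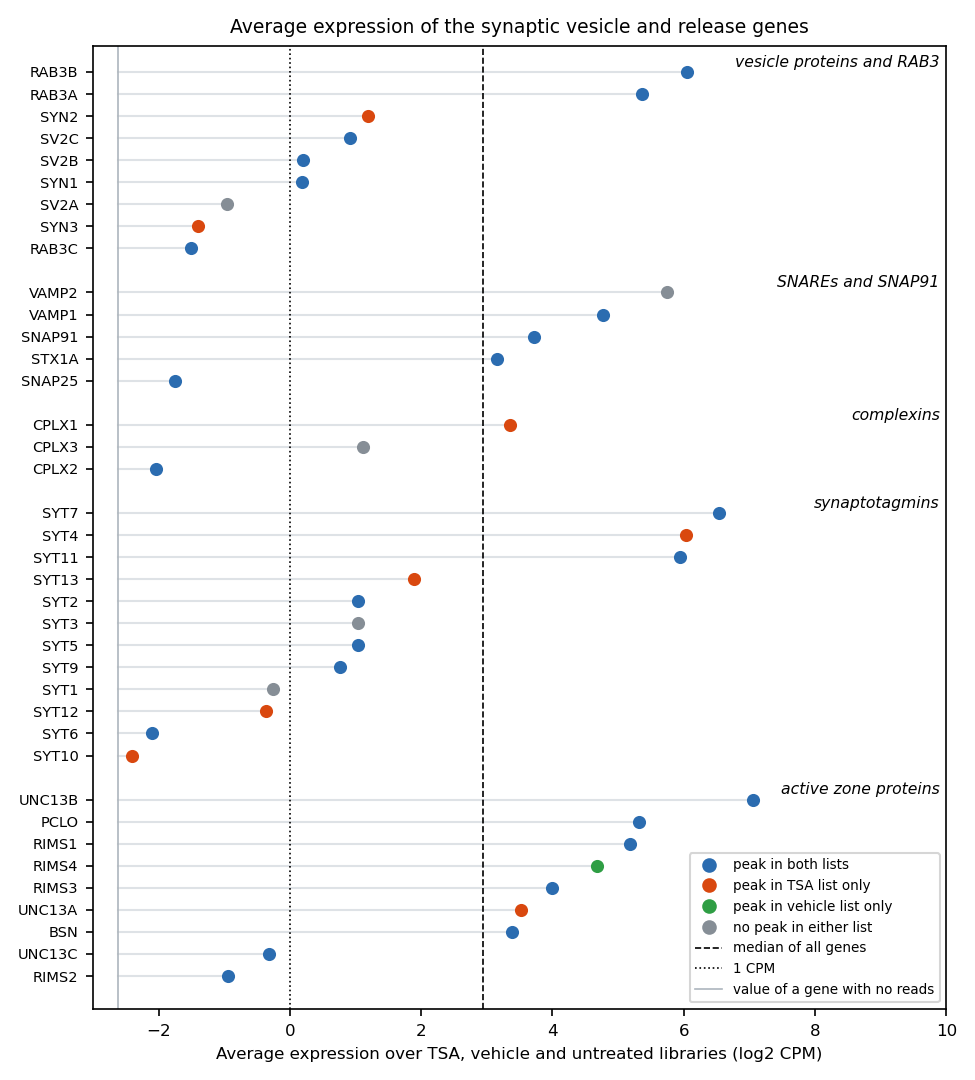
Average expression of the 38 genes in log2 CPM, by role, over TSA, vehicle and untreated libraries together, with each point coloured by the ATAC-seq lists that hold a peak in the start site window. Averages run from -2.40 for SYT10 to 7.06 for UNC13B, and 11 genes lie under 1 CPM (the dotted line).

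Levels between genes were compared per kb of annotated exon, after taking off the value of a gene with no reads. RAB3A was highest at 27.4 CPM per kb, then VAMP2 at 16.6, SYT4 at 16.5, SYT7 at 12.7, SYT11 at 11.8, VAMP1 at 8.62, UNC13B at 7.51, RAB3B at 5.18, CPLX1 at 4.76 and RIMS4 at 4.70 CPM per kb. Without replicate error the order of close neighbours, such as VAMP2 and SYT4 or CPLX1 and RIMS4, cannot be told apart. The lowest were SYN3 at 0.0275, RAB3C at 0.0213, CPLX2 at 0.0153, SYT6 at 0.0144 and SYT10 at 0.00600 CPM per kb. The median over the 38 genes was 0.622 CPM per kb, against 2.69 over all 20834 genes with an annotated start. UNC13B led by CPM but not per kb, since its annotated exons add up to 17.8 kb.

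Of the 9 genes of vesicle proteins and RAB3 GTPases, 6 averaged at least 1 CPM, and RAB3B and RAB3A were the highest. RAB3 proteins sit on the vesicle membrane and bind RIM at the active zone. RAB3B averaged 66.4 CPM and RAB3A 41.1 CPM, whereas RAB3C averaged 0.351 CPM, about 21 reads in all. Synapsins tether vesicles in the reserve pool, and none of them was abundant, with SYN2 at 2.28, SYN1 at 1.13 and SYN3 at 0.379 CPM. SV2 proteins are vesicle membrane glycoproteins, and SV2A is the target of levetiracetam. SV2C averaged 1.87, SV2B 1.15 and SV2A 0.514 CPM.

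The SNARE genes divided by partner. VAMP2 averaged 53.8 and VAMP1 27.2 CPM, and both encode synaptobrevins, the SNAREs of the vesicle. STX1A, the syntaxin of the plasma membrane, averaged 8.95 CPM. SNAP25, the other plasma membrane SNARE of neurons, averaged 0.297 CPM, about 15 reads over 9 libraries. SNAP91 encodes AP180, a clathrin adaptor of vesicle retrieval, and averaged 13.2 CPM. Complexins bind the assembled SNARE complex. CPLX1 averaged 10.2 CPM, CPLX3, known from retinal ribbon synapses, 2.17 CPM, and CPLX2 0.244 CPM, about 9 reads.

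Of the 12 synaptotagmins, 3 were abundant. SYT7, a slow calcium sensor that also acts in lysosome and granule exocytosis, averaged 93.0 CPM. SYT4 and SYT11, which lack full calcium binding in their C2 domains, averaged 65.2 and 61.5 CPM. SYT13 followed at 3.70 CPM, and SYT2, SYT3, SYT5 and SYT9 lay between 1.70 and 2.06 CPM. SYT1, the main fast sensor of forebrain neurons, averaged 0.837 CPM, SYT12 0.777, SYT6 0.234 and SYT10 0.189 CPM. SYT1, SYT2 and SYT9 are the synaptotagmins that drive fast release, and none of them was above 2.06 CPM.

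Of the active zone genes, 7 of 9 averaged 1 CPM or more, with a median of 3.99 log2 CPM. UNC13B encodes Munc13-2, a priming factor found also outside neurons, and averaged 134 CPM. UNC13A, the main neuronal priming factor, averaged 11.5 CPM, and UNC13C 0.799 CPM. PCLO and BSN, the giant scaffolds Piccolo and Bassoon, averaged 5.32 and 3.38 log2 CPM. Of the RIM genes, RIMS1 averaged 36.3, RIMS4 25.6, RIMS3 15.9 and RIMS2 0.523 CPM.

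A wider list of vesicle cycle genes was higher than the 38. Of 80 further genes 79 were in the table, and 65 of these averaged at least 1 CPM, with a median of 4.05 log2 CPM. The highest were NSF at 8.49, VAMP7 at 7.71, PICALM at 7.63, STXBP5L at 7.56 and PPFIA2 at 7.55 log2 CPM. NSF disassembles SNARE complexes after fusion, VAMP7 is a SNARE of late endosomes and lysosomes, and PICALM is the clathrin adaptor that is expressed outside neurons in place of AP180.

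Accessibility at the start sites was read from the peak lists of each condition, called on pooled libraries. A start site window ran from 1000 bases before to 100 bases after each annotated start. Of the 38 genes, 32 had a peak of the TSA list in a start window and 25 a peak of the vehicle list. A peak in both lists was found for 24 genes (63.2%, against 54.7% of all 20834 genes). A TSA peak and no vehicle peak was found for 8 genes (21.1%, against 5.71% of all genes), and a vehicle peak and no TSA peak for 1 gene, RIMS4 (2.63% against 1.34%). The remaining 5 genes had neither (13.2% against 38.3%). With 1 start site per gene the TSA-only count was 7 (18.4% against 5.71%), the vehicle-only count 1 (2.63% against 1.39%) and the count with neither 6 (15.8% against 41.8%). The TSA list was longer, with 40995 peaks against 38813, and with its 38813 highest peaks alone the TSA-only count was also 7. The share over all genes is not given for that setting.

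The 8 genes with a start peak in the TSA list alone were CPLX1, SYT13, SYN2, SYT4, SYT12, UNC13A, SYT10 and SYN3. Their peaks were not among the strongest of the list. CPLX1 lay at percentile 59.4 of TSA scores (score 0.0675), SYT13 at percentile 57.6 (0.0655), SYN2 at percentile 39.7 (0.0521), SYT4 at percentile 38.3 (0.0513), SYT12 at percentile 20.4 (0.0436), UNC13A at percentile 16.1 (0.0421), SYT10 at percentile 10.4 (0.0404) and SYN3 at percentile 4.05 (0.0387). The lowest score in the vehicle list was 0.0390, and the lowest in the TSA list 0.0377, so the SYN3 peak would not have entered a list that ended where the vehicle list did. A gene without a vehicle peak has a score below that end or no called peak, and its vehicle score is not known. The TSA peak of CPLX1 is 8375 bases long and centred 1.32 kb before the start. That of SYT4 (636 bases) is shorter than the median TSA peak of 1088 bases, and that of SYT12 (1016 bases) is near it. Both lie on the start itself. RIMS4, the 1 gene of the reverse kind, had a vehicle peak at percentile 34.2 (score 0.0502).

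SYT4 joins the highest average of these 8 genes to a small site. Its 1 ATAC peak within 50 kb was that TSA peak, chr18:40857043-40857678, and it averaged 2.88 log2 CPM over the ATAC-seq libraries, in percentile 29.5 of the 51909 merged sites. The RE1-like match of SYT4 shown above lies inside this peak. Its expression of 65.2 CPM is an average over treated and untreated cells, and how it divides among them was not tested.

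Where both lists had a start peak, the percentile in the TSA list was higher than in the vehicle list for 15 of 24 genes and lower for 9, with a median difference of 4.62 percentile points. Over all 11387 genes with a start peak in both lists, 66.9% were higher in the TSA list and the median difference was 2.53 points. The largest percentile differences were those of RIMS1, at percentile 54.9 in the TSA list and percentile 15.2 in the vehicle list, and RIMS3, at percentile 81.4 in the TSA list and percentile 50.6 in the vehicle list. RIMS1 scored 0.0628 with TSA and 0.0431 with vehicle, and RIMS3 0.106 and 0.0595. Percentile points do not give the size of a score change. SNAP91 scored 0.179 with TSA and 0.117 with vehicle but differed by 6.96 points. SYT5 was at percentile 42.9 with TSA and percentile 27.1 with vehicle, and SNAP25 at percentile 86.2 with TSA and percentile 74.4 with vehicle. In the other direction SYT2 was at percentile 4.11 with TSA and percentile 27.3 with vehicle, and SYT6 at percentile 33.8 with TSA and percentile 51.0 with vehicle. PCLO had the highest start peak of the 38 genes in both lists, at percentile 99.5 with TSA and percentile 99.6 with vehicle.

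**Figure D2:**
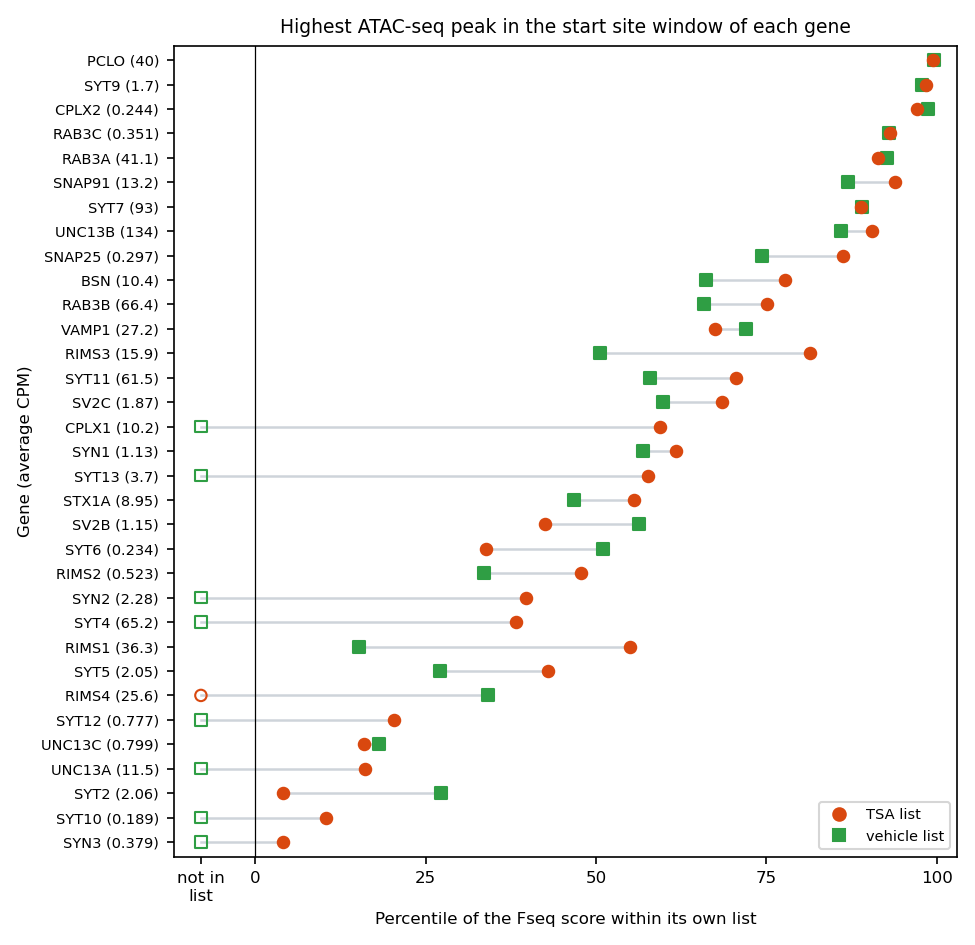
Percentile of the highest ATAC-seq peak in the start site window within the TSA list (circles) and the vehicle list (squares), for the 33 genes with such a peak, with average CPM in brackets and open symbols where a list held none. CPLX2, RAB3C and SNAP25, all under 1 CPM, lie among the highest 9, and 8 genes have no vehicle peak. For SV2B the 2 symbols belong to different peaks.

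Several of these genes had accessible start sites and next to no transcript. Of the 11 members under 1 CPM, 9 had a peak at a start in at least 1 list (81.8%, against 21% of all 6739 genes under 1 CPM). With 1 start site per gene it was 8 of 11 (72.7% against 18.7%). Starts of the 38 genes were richer in CpG than those of all genes, with a median ratio of observed to expected CpG of 0.82 against 0.73. Among genes under 1 CPM with a ratio of at least 0.6 the shares were 6 of 6 members and 44.5% of all 1858 genes. Below that ratio they were 3 of 5 members and 12% of 4880 genes. The splits by start site and by CpG were chosen after seeing the data. Among genes of at least 1 CPM, 18 of 27 members had a peak in both lists (66.7% against 74.1%).

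**Figure D3:**
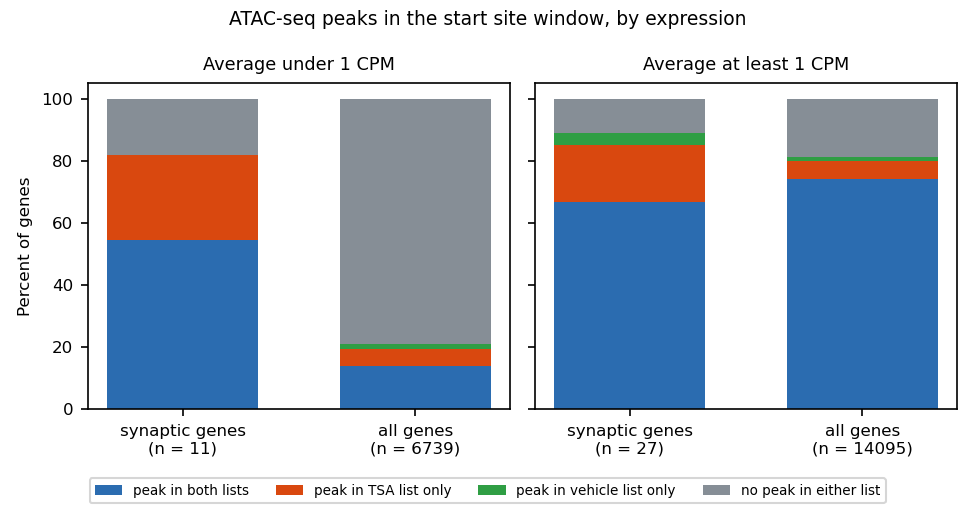
Percent of genes by the lists that hold a peak in their start site window, for genes averaging under 1 CPM (left) and at least 1 CPM (right), synaptic genes beside all genes with an annotated start. Under 1 CPM, 18.2% of the 11 synaptic genes and 79.0% of all genes had no start peak.

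Individual genes of this kind had strong peaks. CPLX2 averaged 0.244 CPM, yet the peak over its first start, chr5:175223027-175225221 in the TSA list, scored 0.244 with TSA and 0.294 with vehicle, percentile 97.2 with TSA and percentile 98.7 with vehicle. A further CPLX2 start carries the RE1-like match above, inside peaks at percentile 75.6 with TSA and percentile 88.0 with vehicle. RAB3C averaged 0.351 CPM and had a start peak at percentile 93.2 with TSA and percentile 93.1 with vehicle. SNAP25 averaged 0.297 CPM, and 1 peak covered all 11 of its start sites, with scores of 0.123 with TSA and 0.0849 with vehicle. That peak ran to chr20:10200604 in the TSA list and to chr20:10200733 in the vehicle list, so both held the 2 RE1-like matches of SNAP25. RIMS2 at 0.523 CPM and SYT6 at 0.234 CPM also had start peaks in both lists, as did UNC13C at 0.799 CPM, whose peak of 566 bases with TSA and 425 bases with vehicle covered none of its own starts. No peak at a start of these 9 genes covered a start of another gene. The 2 genes under 1 CPM without a start peak were SV2A and SYT1.

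VAMP2, by contrast, averaged 53.8 CPM, at percentile 79.6 of genes, and neither list had a peak in its start window, although 10 TSA and 8 vehicle peaks lay within 50 kb. An open enhancer, which by the authors' definition overlaps a DNase I site, lay 0.477 kb before its start. CPLX3 and SYT3, the other genes above 1 CPM with no start peak, averaged 2.17 and 2.06 CPM. SYT1 had no peak of either list within 50 kb of any of its 19 start sites.

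RE1-like matches were counted near the start sites. Within the start window and with 2 mismatches allowed, 3 genes had one, SYN1, SYT3 and SYT5 (7.89%, against 4.49% of all genes). Within 2500 bases on either side and with 1 mismatch allowed, it was 6 genes, SNAP25, SYT5, SYN1, SYT4, CPLX2 and SYT6 (15.8% against 1.83%). With no mismatch it was SNAP25 and SYT5 (5.26% against 0.442%, or against 0.36% with 1 start site per gene). With 1 start site per gene the shares at 1 mismatch were 13.2% against 1.43%, and at 2 mismatches 31.6% against 11.6%. At 1 mismatch, 3 of the 11 members under 1 CPM had a match (27.3% against 2.52% of genes at that level) and 3 of the 27 others (11.1% against 1.5%). All 3 of those under 1 CPM had a start peak, as did 51.8% of the 170 genes under 1 CPM with such a match. With 2 mismatches the matches were common, 34.2% of members against 14.4% of all genes. They then included PCLO, RAB3A, RIMS1, SV2B, SYT3, SYT13 and SYT7. A match is a description of the sequence, and binding of REST was not measured here.

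All 7 matches with 1 mismatch or fewer near members were inside a TSA peak and 5 of them inside a vehicle peak. Over all genes there were 373 such matches, 51.2% of them in a TSA peak and 41.6% in a vehicle peak. The 2 outside the vehicle list were those of SYT4 and SYT6. The match of SYT6 lay 1349 bases before a start, in the part of the TSA peak (3583 bases) that the vehicle peak (2726 bases) did not reach. None of the 7 lay in a STARR-seq enhancer. Of the 8 further matches near members with 2 mismatches, 3 lay in a TSA peak, those of PCLO, RAB3A and SV2B, and 2 of these also in a vehicle peak, those of PCLO and SV2B. Of the 6 genes, SNAP25, CPLX2 and SYT6 averaged under 1 CPM, SYN1 1.13 and SYT5 2.05 CPM, and SYT4 65.2 CPM.

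Within 50 kb of the genes, start sites included, there were 120 TSA peaks and 115 vehicle peaks. Of the TSA peaks 37 had no overlapping vehicle peak (30.8%, against 25.8% of TSA peaks within 50 kb of any gene), and of the vehicle peaks 29 had no TSA peak (25.2% against 20.2%). At least 1 TSA peak without a vehicle peak lay near 22 of the 38 genes (57.9%, against 41.3% of all genes), and at least 1 vehicle peak without a TSA peak near 18 (47.4% against 29.9%). For the 83 TSA peaks that had a vehicle partner, the percentile was higher with TSA in 57 and lower in 26, with a median difference of 4.41 points against 1.35 points over all 27561 such peaks.

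The strongest TSA peaks without a vehicle partner were in SNAP25, near VAMP2, at CPLX1, near RAB3C and at SYT13. The SNAP25 peak, chr20:10231386-10232179, lies in an intron 32.0 kb after a start, at percentile 77.7 of TSA scores. The VAMP2 peak, chr17:8057353-8058370, is in an intron of PER1, 8.39 kb beyond the VAMP2 start, at percentile 67.6. The CPLX1 peak, chr4:817052-825426, and the SYT13 peak, chr11:45306742-45308707, are the start peaks given above. The RAB3C peak, chr5:57853238-57854263, is intergenic, 25.2 kb before the start, at percentile 58.1. TSA peaks without a vehicle partner had a median at percentile 36.9 of their list, against 24.7 over all such TSA peaks, and vehicle peaks without a TSA partner a median at percentile 17.3 of theirs, against 25.1 over all. SYT7 had the most vehicle peaks without a TSA partner, 4, and no TSA peak without a vehicle partner.

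Enhancer activity on plasmids was found near every one of the 38 genes. At least 1 STARR-seq enhancer lay within 50 kb of a start (100%, against 96% of all genes), 182 distinct enhancers in all. SV2B had the most, 12, followed by SV2A with 10 and CPLX2 and SYT6 with 9 each. RAB3B, SNAP25, SYT1, SV2C and SYT4 had 1 each. The median number was 4.5 per gene against 4 over all genes. Of the 182, 54 were open, that is over a DNase I site of LNCaP, and 128 closed. The open share was 29.7%, against 20.4% of the 48849 enhancers within 50 kb of any gene. Open enhancers were near 22 genes (57.9%, against 56.6% of all genes) and closed ones near 34 (89.5% against 90.5%). The nearest start of any gene belonged to the member itself for 94 of the 128 closed enhancers but for 25 of the 54 open ones. Around these 38 genes the open ones thus more often lay nearest to another gene's start. A start window, of a member or of another gene, was the place of 13 open and 2 closed ones. The matching shares around all genes are not given here, so whether the members differ from them was not tested.

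Closed enhancers made up most of those around the active zone genes, 43 of 49, and the largest share of open ones was found around the complexins, 10 of 18. Closed enhancers were also the majority within 50 kb of any gene, 38897 of 48849, with 20.4% open. Of the 128 closed enhancers, 76 lay in introns and 45 between genes, and all 12 around SV2B were closed. CPLX1 had 3 enhancers, all of them open, as did VAMP2 and SYT3, and UNC13A had 2. The reverse was true of RIMS1 with 7 closed, RIMS4 with 6, BSN, SYT9 and SYT13 with 5 each and UNC13C and SYT2 with 4 each.

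**Figure D4:**
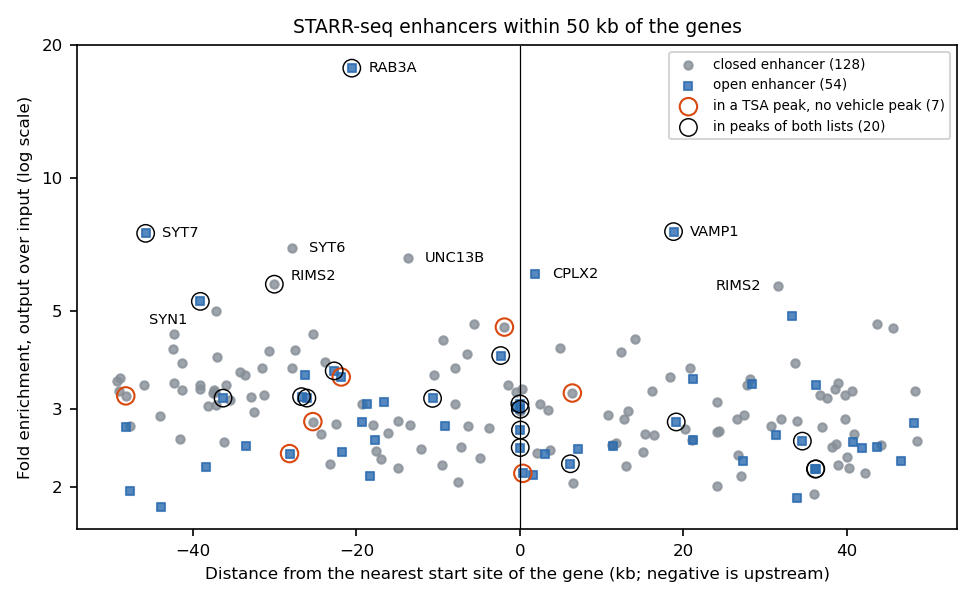
Fold enrichment of output over input (log axis) of the 182 STARR-seq enhancers within 50 kb of the genes, against the distance from the nearest start site of that gene in kb, squares for open and circles for closed enhancers. The enhancer near RAB3A at 17.8-fold stands above all others, the next being at 7.58-fold near VAMP1.

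The strongest enhancer near any of these genes was 17.8-fold over input and lay 20.6 kb before RAB3A, in the start window of PDE4C, a phosphodiesterase gene. It spans chr19:18334944-18335908. The value comes from 617 output fragments (95% exact Poisson interval 569 to 668, for counting error only) against a scaled input of 33.8. Scaled input, here and below, is the expected count implied by fold and p-value, not input fragments counted at the site. The fold stood at percentile 99.7 of open enhancers. The authors kept fragments that recurred across their separately indexed PCR libraries. The fragments may therefore not be independent, and the interval may be too narrow. The enhancer lay in peaks of both ATAC lists. Its summit sequence, printed above, holds 3 p53 half-sites and 19 CG steps in 150 bases. At least 3 such half-sites were found at 2 of 11980 open and 55 of 82547 closed enhancer summits (0.0167% and 0.0666%). Of the 2 open summits, 1 is this one. The motif was chosen after this sequence had been seen, so these shares are not an independent background for it. Since the nearest start is that of PDE4C, its relation to RAB3A is one of distance alone.

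The other enhancers of the 8 strongest ranged from 5.70-fold to 7.58-fold. The one near VAMP1, chr12:6560523-6561537 (7.58-fold, 214 output fragments against 27.4 scaled input), is open and lies in the start window of TAPBPL, 18.8 kb beyond the VAMP1 start. The one near SYT7, chr11:61393996-61394796 (7.51-fold, 221 against 28.6), is open and lies in an intron of the pseudogene RPLP0P2, 45.8 kb before the SYT7 start. The closed enhancer near SYT6, chr1:114723977-114724698 (6.94-fold, 133 against 18.3), is intergenic, 27.8 kb before the start. UNC13B had a closed enhancer in its own intron, chr9:35327755-35328520 (6.59-fold, 79 against 11.1). Its summit lies in repeated sequence, with words of 24 bases present in a median of 8136 copies in the genome. CPLX2 had an open enhancer 1.88 kb after a start, chr5:175306683-175307485 (6.07-fold, 149 against 23.7), over annotated UTR. RIMS2 had 2 closed enhancers of this rank, at 5.76-fold in an intron (111 against 18.5, repeated sequence with a median of 266 copies, and in peaks of both ATAC lists) and at 5.70-fold between genes (67 against 10.9). The peak over the intronic one scored 0.407 with TSA (percentile 99.4) and 0.0872 with vehicle (percentile 75.7). Of the 83 shared peaks near members, 57 were at a higher percentile with TSA and 26 at a lower one.

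The median fold enrichment was 2.98 over the 182, against 3.02 over all enhancers within 50 kb of any gene. It was 2.72 for the 54 open and 3.08 for the 128 closed ones, against 2.78 and 3.10 over all open and all closed enhancers. Output fragments at the summits ran between 25 and 617 with a median of 51. Repeated sequence lay under 2 of the 54 open and 17 of the 128 closed summits, and under 1.26% of 238 open and 12.5% of 1653 closed summits sampled from all enhancers. E-boxes were found at 68.5% of open and 66.4% of closed summits near members, against 54.8% and 60.9% over all. AP-1 sites (TGANTCA) were at 0 of 54 open and 8 of 128 closed summits, against 5.63% and 6.45% over all.

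Of the 38 genes, 7 had an enhancer centred in their own start window (18.4%, against 19.2% of all genes). They were open at UNC13B (3.00-fold), VAMP2 (3.04-fold), VAMP1 (2.69-fold), PCLO (2.46-fold) and RIMS2 (3.08-fold), and closed at SYT1 (3.28-fold) and RIMS1 (2.98-fold). Further open enhancers lay 0.352 kb after the start of SYT10 (2.15-fold, inside its TSA-only peak) and 2.36 kb before SYT11 (3.97-fold, at the start of GON4L).

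The remaining open enhancers were mostly weak or nearest to other genes. SYN1 had 5 open enhancers, the strongest of 5.26-fold in a coding exon of UXT, 39.1 kb before the SYN1 start. RAB3A and SYT7 had 5 each. SYT5 and CPLX2 had 4 each, with up to 3.18-fold near SYT5. CPLX1 (up to 2.55-fold), CPLX3 (up to 3.20-fold), SYT3 (up to 3.58-fold), VAMP1 and VAMP2 had 3 each. UNC13A had an open enhancer of 4.87-fold in its own intron (191 output fragments against 38.4 scaled input). SYN3 had 1 of 3.51-fold in its intron, SYT6 2 of up to 3.42-fold in its introns, SYT12 2 of up to 2.81-fold, and SV2A 2 of up to 3.55-fold. RIMS3 had 1 at the start of NFYC (3.18-fold) and STX1A 1 at the start of DNAJC30 (2.20-fold).

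Closed enhancers seldom coincided with TSA peaks. Of the 128 closed enhancers, 5 overlapped a TSA peak and 2 a vehicle peak, 3.91% and 1.56%, against 2% and 1.4% of closed enhancers within 50 kb of any gene. A TSA peak and no vehicle peak was overlapped by 4 closed enhancers (3.12% against 1.05%), near RAB3C, SNAP91, SV2B and SYN1, so 4 of 38 genes had such an enhancer (10.5%, against 3.12% of all genes). This share of genes, too, is not given with 1 start site per gene. The one in SV2B, chr15:91766767-91767631, was 4.60-fold (72 output fragments against 14.9 scaled input) and lay 1.9 kb before a start inside the gene. The TSA peak there shared 507 bases with the enhancer but also met a vehicle peak whose near end was 283 bases away from the enhancer, so the site as a whole was accessible in both conditions. In SYN1, chrX:47472574-47473120, the enhancer was 3.26-fold (44 against 12.8) and its intronic TSA peak of 370 bases lay at percentile 7.2. Near RAB3C, chr5:57853287-57853861, it was 2.81-fold (65 against 22.5), lay whole inside the TSA peak named above, and is repeated sequence. Near SNAP91, chr6:84467186-84468060, it was 3.22-fold (74 against 22.3), 48.2 kb before the start, and shared 82 bases with a TSA peak at percentile 36.7. The summits of the SYN1 and SNAP91 enhancers, chrX:47473025 and chr6:84467586, lay outside those TSA peaks. The summits of the SV2B and RAB3C ones lay inside theirs.

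Open enhancers were also set against expression. They were near 15 of the 27 members of at least 1 CPM (55.6%, against 64.8% of all genes at that level) and near 7 of the 11 under 1 CPM (63.6% against 39.3%). UNC13B, the member with the highest average, had 1 open enhancer against 7 closed, and RAB3B and SYT4 at 66.4 and 65.2 CPM had 1 closed enhancer each and no open one. CPLX2 at 0.244 CPM had 4 open and 5 closed enhancers.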

How the data were processed

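The authors aligned WHG-STARR-seq and ATAC-seq reads to hg19 with Bowtie (ATAC-seq also with cutadapt and Bowtie2), removed duplicates with Picard, and called enhancers with MACS2 and ATAC-seq peaks with Fseq, pooling replicates. mRNA-seq was aligned with TopHat. Versions of these tools: not given in the sources used here. Deposited lists of enhancers hold a fold (ratio of output over input), −log10 values of the p and the q, and a score, for each enhancer. The deposited ATAC-seq lists give an Fseq score per peak, and percentiles are ranks of that score within its list. The authors' edgeR tables give an average in log2 CPM, which was used, and log2 fold changes, likelihood ratios, p-values and q-values of TSA against vehicle, which hold the authors' comparison and were not used. No count per library was used, so the depth of each library is unknown here.

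Start sites are those of 20834 genes (57921 starts) in the GENCODE v44 basic set lifted to GRCh37, with older symbols matched through a table of gene synonyms, and the CpG ratio is that of the sequence around 1 start per gene. A region belongs to a gene when its centre is within 50 kb of a start, and regions overlap when they share 1 base. Exon length is the union of these transcripts and not the authors' gene models. Reads were recovered from averages with a prior count of 2, and output fragments and scaled input from fold and p-value. Scaled input is thus an expected count and not a count of input fragments at the site, and the value 8.40 recurs at unrelated enhancers. Tables were handled with pandas 2.3.3 and numpy 2.4.6 in Python 3.11.15, intervals came from scipy 1.17.1, and sequences from pysam 0.24.0, and the recovery and the motif search were tested on simulated data. The simulated folds did not reach that of the strongest enhancer.

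The 38 genes and the lists were chosen with earlier results of these data known. Every member is accounted for, and values are given by rule for members of at least 1 CPM, the 10 highest and 5 lowest per kb, members with a start peak, an open enhancer or an RE1-like match, the 8 strongest enhancers, closed enhancers in TSA-only peaks, and the 5 highest TSA-only peaks. Marker and vesicle cycle lists follow the same rule. Some marker genes, and the totals of the lists that hold them, are not reported here. Other windows, thresholds, overlaps and list lengths were tried. After seeing the data, genes under 1 CPM were also split by start site and CpG ratio, and p53 half-sites were searched. The search for RE1-like matches within 2500 bases with 1 mismatch or none was not among the planned settings. Repeated sequence means a median of 10 or more genomic copies of the 24-base words within 75 bases of a summit, and the background for it is an evenly spaced sample of enhancers.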

Additional observations from a re-analysis of the deposited data

How the results depend on the processing

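Windows of 500 or 2500 bases, 1 start site per gene and lists of equal length left every count of TSA or vehicle start peaks within 1.5 times its value, except that the genes with a vehicle peak and no TSA peak became 2 with lists of equal length. With 10 kb in place of 50 kb, 22 genes had an enhancer, 10 an open one and 15 a closed one, 36 enhancers remained near the genes, TSA peaks without a vehicle peak were 17 and vehicle peaks without a TSA peak 7, and 2 closed enhancers overlapped a TSA peak alone. With 100 kb there were 348 enhancers and 59 TSA peaks without a vehicle peak. Enhancers with a q-value under 1e-10 were 72, with a median fold of 3.51. RE1-like matches at a start were found for 16 genes with 3 mismatches, where 30.3% of all genes had one, and with 2 mismatches for 6 genes within 500 bases and 13 within 2500 bases of a start. Apart from the 30.3%, no share over all genes stands beside these counts here. They show how the member counts moved and not how members compare with all genes at those settings. In alternatives chosen after seeing the data, members under 1 CPM with a start peak were 8 of 11 with 1 start site per gene and 6 of 6 among those with a CpG ratio of at least 0.6. No paired analysis was possible because the values used here are pooled over libraries, and no library could be left out for the same reason. Genes near the floor of the mRNA-seq table rest on a few reads, and enhancers of 25 to 50 output fragments on as few fragments, so ranks among them carry little.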
